A study of Homo sapiens with 12 samples.

Results

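The 48 genes described here are the mitosis and spindle genes of human AC16 cells: cyclins and kinases that drive cells into mitosis, kinesin motors, kinetochore and spindle proteins, and proteins of chromosome separation and cytokinesis. They were taken by gene symbol as a functional group, and all 48 were found among the 60607 gene IDs of the count table. AC16 is a line made by fusing adult ventricular heart cells with a transformed fibroblast line. The study addressed the heart muscle disease caused by doxorubicin, an anthracycline that poisons topoisomerase II and breaks DNA, over exposures of different length. Messenger RNA was sequenced in 12 libraries, 3 from control cells in DMEM and 3 each from cells given 0.1 µM doxorubicin for 2, 4 and 6 days, all labelled wild type.

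The library titles give these exposures as 48, 96 and 112 hours, and the series design gives 6 days for the one titled 112 hours. Every title also carries day 6, and no label states whether an exposure lasted until the cells were collected. Day 2, day 4 and day 6 below are the lengths of exposure of separate groups of cells. No label states that libraries of a group are separate cultures, so the spread behind the p-values is the one among the libraries sequenced and could be technical. The labels call the cells cardiomyocytes, but several heart muscle markers were at or near 0. MYL2 had 0 counts in all 12 libraries, NKX2-5 had 1, 0, 1 and 0 counts over the control, day 2, day 4 and day 6 groups, and MYH6 had 0, 0, 0 and 3. Only 3 of 12 cardiomyocyte markers had enough counts to be tested, while all 11 fibroblast markers did.

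Total counts per library were 14835743 to 21226441. Levels are normalised counts per 1000000 (CPM), and values after ± are SDs over 3 libraries for levels and standard errors for log2 fold changes. Adjusted p-values come from edgeR's quasi-likelihood test with Benjamini-Hochberg adjustment over all 17320 genes tested, and a gene was called changed where that value was under 0.05. CPM is not divided by transcript length, so levels are compared between groups and not between genes. Groups of 3 libraries often lie apart. At day 6 against day 4, 14.3% of all genes had every day 6 library lower and 13.3% had every one higher. In each other comparison, 21.8 to 26.9% of all genes lay apart as lower and 22.2 to 26.1% as higher.

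In a dividing cell, cyclins A and B activate CDK1, and CDK1, Polo-like and Aurora kinases then build the spindle and condense the chromosomes. Kinetochores on each centromere bind spindle microtubules, and the spindle assembly checkpoint holds back the anaphase-promoting complex until every chromosome is attached. The ubiquitin ligase then destroys securin and cyclin B, sister chromatids part, and motor and scaffold proteins of the midzone direct the cut between the daughter cells. Most of these genes are transcribed late in the cycle, through FOXM1 and the MuvB complexes with B-MYB, and the DREAM complex holds them down in resting cells and after p53 has induced p21.

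The group as a whole was low at day 2, less low at day 4 and lowest at day 6. Summed over the 48 genes, levels were 9506 to 10043 CPM in control libraries, 5553 to 5951 at day 2, 6424 to 6800 at day 4 and 4744 to 4899 at day 6, and no 2 groups overlapped. In bulk RNA, fewer cells in mitosis and less of these messengers per cell cannot be told apart. All 48 genes had enough counts to be tested. At day 2, 44 of 48 had fallen relative to the control and 0 had risen, where 23.4% of all genes tested were lower and 23.8% were higher. At day 4, 40 were below the control and 0 above, against 17.7% lower and 18.8% higher among all genes, and at day 6, 46 were below and 0 above, against 21.7% lower and 22% higher. These 3 comparisons share the same control libraries. The shares of all genes here and in the next paragraph also stand beside the counts of each functional group below. The median log2 fold change of the members against the control was -0.79 at day 2, -0.60 at day 4 and -0.98 at day 6, where the median of all genes lay between -0.01 and 0.00.

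Between exposures, 24 members were higher and 5 lower at day 4 than at day 2, against 16.3% higher and 18.5% lower among all genes. At day 6, 37 members were lower and 1 was higher than at day 4, against 3.73% lower and 3.05% higher among all genes, and both comparisons use the day 4 libraries. The 1 higher, WEE1, was not called when any of the day 4 or day 6 libraries was left out. Set directly against day 2, day 6 had 25 members lower and 6 higher, against 23% lower and 19.8% higher among all genes. The 6 were 3 without day 6 replicate 2. With libraries scaled by their totals alone the split of day 6 against day 2 was 15 lower and 11 higher, a scaling that moved the median of all genes by 0.16 on the log2 scale. A test for any difference among the 4 groups called 47 members, all but BUB3, against 63.4% of all genes. By group means, the control was highest in 46 members, and the lowest group was day 6 in 36, day 2 in 11 and day 4 in 1, which was WEE1.

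**Figure D1:**
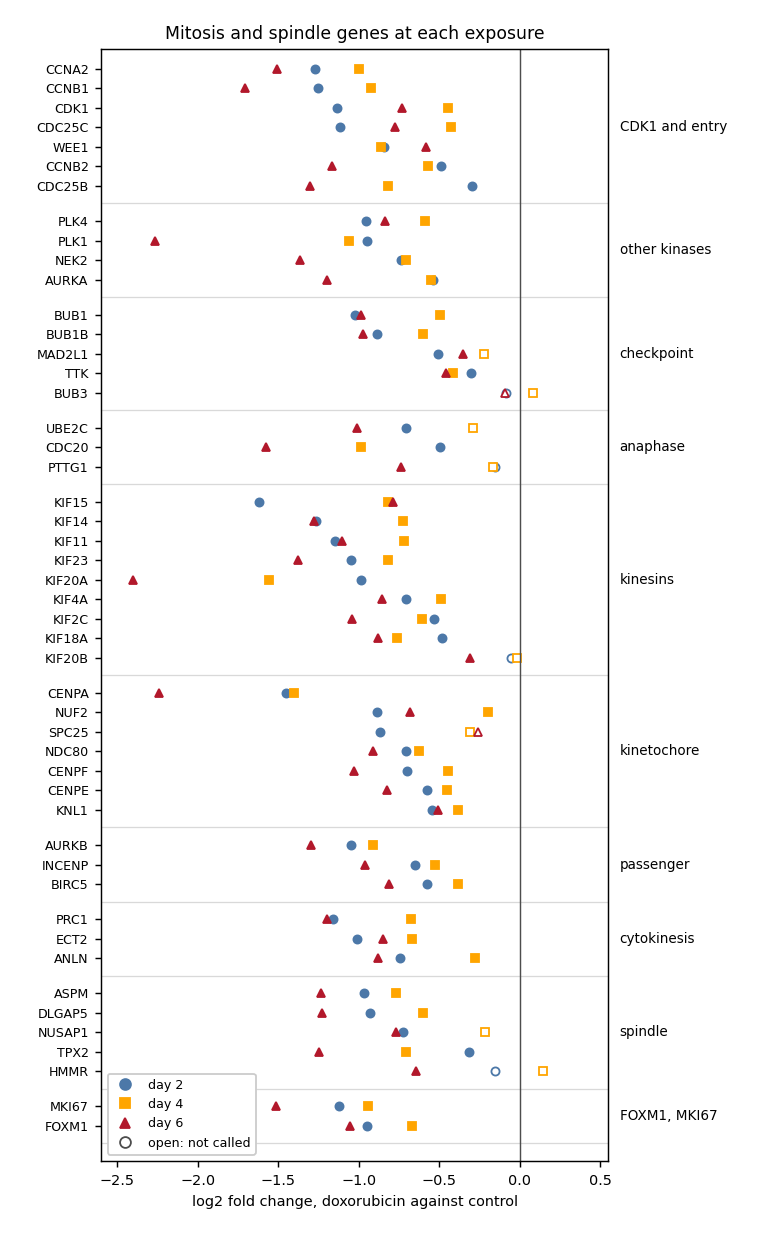
Log2 fold change against control (x axis) of each of the 48 genes (rows, in functional groups) at day 2 (circles), day 4 (squares) and day 6 (triangles), with open symbols where the adjusted p was 0.05 or more. Nearly all symbols lie left of 0, day 4 often lies right of both other exposures, and KIF20A, PLK1 and CENPA reach the lowest values, at day 6.

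Promoters of late cell cycle genes are known for a pair of short elements, the cell cycle genes homology region (CHR), which MuvB binds, and the CCAAT box, which NF-Y binds. RefSeq promoters of build GRCh38.p14, from 250 bases before to 50 after each start, were matched for 39 of the 48 genes. For members and genes tested, only the first entry was searched where a gene had several. AURKA, WEE1, BUB3, TTK, UBE2C, KNL1, BIRC5, TPX2 and FOXM1 had no entry in the table used. Searched on both strands for TTTGAA or TTCGAA, 29 of the 39 promoters (74.4%) held a CHR motif, as did 11.7% of 11725 promoters of genes tested and 16.4% of all 35116. The letters CCAAT were present on either strand in 29 of 39 (74.4%), as in 36.4% of promoters of genes tested and 34.6% of all. Both motifs were present in 23 of 39 (59.0%), as in 4.91% of promoters of genes tested and 6.38% of all. The E2F motifs TTTCCCGC, TTTGGCGC, TTTCGCGC and TTTGCCGC were present in 4 of 39 (10.3%), as in 5.18% of promoters of genes tested and 3.31% of all. Letters that match a motif are a description, not a binding site, and a window without a match says nothing of the factor. The GC content averaged 60.9% in the 39 promoters and 63.9% in those of genes tested.

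The sequences below show the member with the lowest log2 fold change at day 2 in each of the 3 largest functional groups (CCNA2, KIF15 and CENPA), and 2 of the 3 members with the smallest change at day 2 (KIF20B and PTTG1). The other one, BUB3, was without an entry. They lie at chr4:121823834-121824133 on the minus strand (CCNA2), and on the plus strand at chr3:44761544-44761843 (KIF15), chr2:26785806-26786105 (CENPA), chr10:89701340-89701639 (KIF20B) and chr5:160421605-160421904 (PTTG1). Each runs 5′ to 3′ with the start site 50 bases before its end, and capitals mark CHR and CCAAT motifs on either strand, so that ATTGG is CCAAT read from the other strand.
CCNA2: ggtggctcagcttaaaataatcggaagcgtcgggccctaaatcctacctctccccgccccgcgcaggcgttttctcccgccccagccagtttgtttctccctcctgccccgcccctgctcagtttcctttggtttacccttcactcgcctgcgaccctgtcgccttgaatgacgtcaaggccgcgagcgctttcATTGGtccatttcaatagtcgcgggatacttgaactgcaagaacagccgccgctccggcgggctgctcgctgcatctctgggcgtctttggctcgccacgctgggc
KIF15: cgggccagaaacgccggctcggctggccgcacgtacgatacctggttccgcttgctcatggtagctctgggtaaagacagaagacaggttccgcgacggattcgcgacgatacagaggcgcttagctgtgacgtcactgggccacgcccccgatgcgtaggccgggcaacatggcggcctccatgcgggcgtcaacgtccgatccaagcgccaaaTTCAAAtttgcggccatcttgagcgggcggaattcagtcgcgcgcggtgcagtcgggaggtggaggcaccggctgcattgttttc
CENPA: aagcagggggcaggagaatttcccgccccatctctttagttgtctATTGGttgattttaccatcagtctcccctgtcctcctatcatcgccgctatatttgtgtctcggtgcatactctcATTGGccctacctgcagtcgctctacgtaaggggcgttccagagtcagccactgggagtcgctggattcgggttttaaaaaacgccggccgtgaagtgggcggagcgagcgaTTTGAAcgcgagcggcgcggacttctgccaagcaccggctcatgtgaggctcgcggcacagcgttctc
KIF20B: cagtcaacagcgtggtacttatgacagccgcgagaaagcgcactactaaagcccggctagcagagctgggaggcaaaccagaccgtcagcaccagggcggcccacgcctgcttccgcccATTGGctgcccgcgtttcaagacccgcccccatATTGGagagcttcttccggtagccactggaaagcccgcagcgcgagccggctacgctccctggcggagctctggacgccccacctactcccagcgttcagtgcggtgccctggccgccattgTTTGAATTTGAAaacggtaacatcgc
PTTG1: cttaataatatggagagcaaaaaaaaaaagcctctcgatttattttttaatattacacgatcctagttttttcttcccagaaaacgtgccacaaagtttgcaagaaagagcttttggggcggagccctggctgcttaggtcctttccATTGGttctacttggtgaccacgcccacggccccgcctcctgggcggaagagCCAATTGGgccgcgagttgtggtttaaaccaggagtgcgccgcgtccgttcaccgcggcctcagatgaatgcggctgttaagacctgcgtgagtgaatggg
KIF20B, whose level did not pass the test at day 2, held 2 adjoining CHR motifs and 2 CCAAT motifs. KIF15, with the lowest fold change at day 2, held 1 CHR motif and no CCAAT, and CCNA2 held 1 CCAAT and no CHR by these letters.

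**Figure D2:**
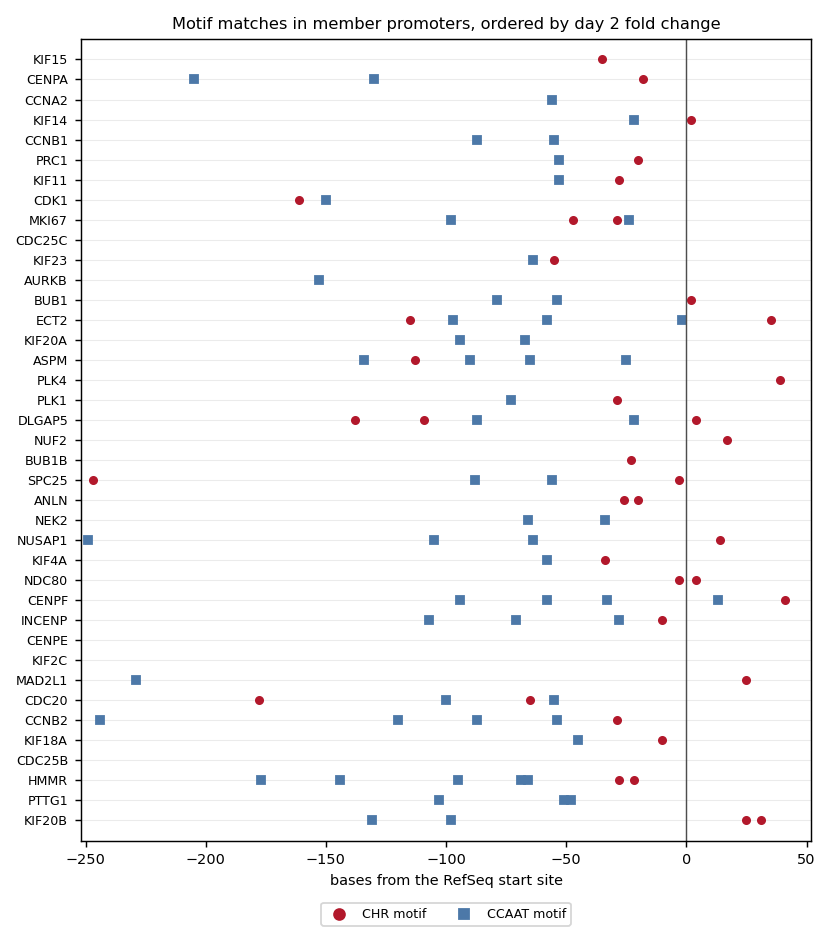
Positions of CHR motifs (circles) and CCAAT motifs (squares) in bases from the RefSeq start site (x axis) in the promoters of 39 members (rows), ordered by their day 2 fold change from the lowest at the top. CDC25C, CENPE, KIF2C and CDC25B held neither motif in this window. CDC25C and CDC25B had 4 promoter entries each, of which only the first was searched.

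All 7 regulators of mitotic entry fell at each exposure against the control. CCNB1, the B-type cyclin that activates CDK1 (chromosome 5, 69167010 to 69178245 in GRCh38), had 198, 233 and 213 CPM in control cells, 90.7, 88.9 and 90.6 at day 2, 110.4, 112 and 117 at day 4, and 68.7, 62.7 and 65.8 at day 6. No 2 of these groups overlapped, with day 6 the lowest. Its log2 fold change against the control was -1.25 ± 0.08 at day 2 (adjusted p = 1.61e-12) and -1.71 ± 0.08 at day 6 (adjusted p = 6.44e-15). It was 0.33 ± 0.08 higher on the log2 scale at day 4 than at day 2 (adjusted p = 0.0016), and its change at day 6 against day 4 was -0.78 ± 0.08 (adjusted p = 1.01e-06). CCNA2, the cyclin of S phase and early mitosis, had 158, 149 and 149 CPM in control cells, 63.4, 63.0 and 62.5 at day 2, 76.9, 78.1 and 72.5 at day 4, and 52, 53.7 and 54.5 at day 6. The order of its groups was the same as for CCNB1, and again no 2 overlapped. The change at day 2 was -1.27 ± 0.07 (adjusted p = 5.91e-13), the most negative of the 7.

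CDK1, the kinase itself (chromosome 10, 60778331 to 60794852), had 246, 227 and 235 CPM in control cells, 105, 102 and 115 at day 2, 182, 171 and 168 at day 4, and 146, 151 and 131 at day 6. Unlike CCNB1, its lowest group was day 2, and day 6 lay between day 2 and day 4 with no overlap. Its log2 fold change was -1.14 ± 0.08 at day 2 against the control (adjusted p = 1.41e-11), 0.69 ± 0.08 at day 4 against day 2 (adjusted p = 1.82e-07) and -0.28 ± 0.08 at day 6 against day 4 (adjusted p = 0.0258). The last of these calls was lost without day 4 replicate 1 (0.137), day 4 replicate 2 (0.0575), day 4 replicate 3 (0.0504), day 6 replicate 1 (0.0678) or day 6 replicate 3 (0.138), the values in brackets being adjusted p. CDC25C, a phosphatase that removes the inhibitory phosphates from CDK1, had a similar course, with a log2 fold change of -1.12 at day 2 against the control, 0.69 at day 4 against day 2 and 0.34 at day 6 against day 2 (the last lost without day 2 replicate 3 at adjusted p = 0.0579 or day 6 replicate 2 at 0.0663).

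CDC25B, the phosphatase that starts CDK1 activation, had 181, 211 and 166 CPM in control cells, 136, 164 and 155 at day 2, 105, 105 and 105 at day 4, and 74.0, 71.0 and 80.2 at day 6. Its groups stepped down at each exposure without overlap. The change against the control was -0.30 ± 0.09 at day 2 (adjusted p = 0.00774, and 0.0855 without day 2 replicate 1), the smallest of the 7, and -1.31 ± 0.09 at day 6 (adjusted p = 1.52e-11). CCNB2, the second B-type cyclin, followed the same order of group means, with log2 fold changes against the control of -0.49 at day 2, -0.57 at day 4 and -1.17 at day 6.

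WEE1, the kinase that places the inhibitory phosphate on CDK1, had 107, 106 and 113 CPM in control cells, 56.7, 65.7 and 59.5 at day 2, 60.8, 60.4 and 58.3 at day 4, and 70.1, 76.7 and 70.8 at day 6. The day 2 and day 4 libraries overlapped, and day 6 lay above both and below the control. It was the only member called higher at day 6 than at day 4, by 0.28 ± 0.08 on the log2 scale (adjusted p = 0.0352). That call was lost when any of the 6 libraries compared was left out, with adjusted p = 0.0969, 0.0724 and 0.119 without day 4 replicates 1, 2 and 3, and 0.0738, 0.179 and 0.0636 without day 6 replicates 1, 2 and 3.

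**Figure D3:**
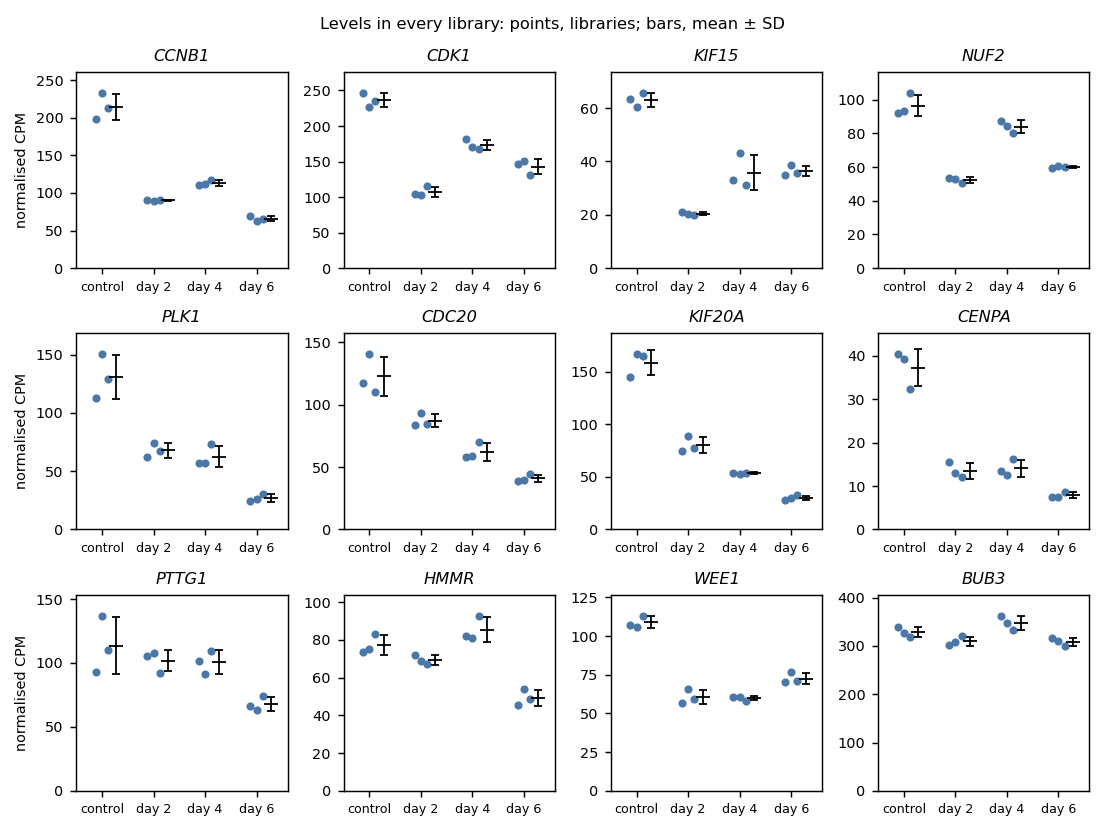
Normalised CPM (y axis, from 0) of 12 members in control, day 2, day 4 and day 6 libraries (x axis), with 1 point per library and bars for the mean ± SD of 3. CCNB1, CDK1, KIF15 and NUF2 have day 4 above day 2, CDC20 and KIF20A step down at every exposure, and all 12 libraries of BUB3 lie between 299.5 and 363.

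The other mitotic kinases fell in 4 of 4 at every exposure against the control. PLK1, the Polo-like kinase of spindle assembly and mitotic exit (chromosome 16, 23677656 to 23690367), had 112, 150.4 and 129 CPM in control cells, 62.0, 74.2 and 67.2 at day 2, 57.0, 57.2 and 73.2 at day 4, and 24.3, 26.3 and 30.7 at day 6. Day 2 and day 4 overlapped, and day 6 lay below all other libraries. The log2 fold change was -0.95 ± 0.11 at day 2 (adjusted p = 3.04e-07), -1.06 ± 0.11 at day 4 (adjusted p = 9.02e-08) and -2.27 ± 0.12 at day 6 (adjusted p = 3.4e-13). Its step at day 6 against day 4, -1.20 ± 0.12 (adjusted p = 1.55e-06), was the most negative of the 48. AURKA, the Aurora kinase of centrosomes and spindle poles, had 189.6, 199 and 196 CPM in control cells, 123, 142 and 138 at day 2, 129.6, 126 and 143 at day 4, and 91.2, 79.1 and 84.7 at day 6. Day 2 and day 4 overlapped here too, with a difference of -0.01 ± 0.08 (adjusted p = 0.919), and the log2 fold change of day 6 over day 4 was -0.64 ± 0.08 (adjusted p = 1.84e-05). NEK2, a centrosome kinase, had log2 fold changes against the control of -0.74, -0.71 and -1.36 at day 2, day 4 and day 6.

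PLK4, the kinase of centriole duplication, had 94.1, 79.2 and 95.2 CPM in control cells, 43.9, 45.6 and 49.1 at day 2, 56.7, 61.9 and 59.9 at day 4, and 51.4, 53.2 and 45.5 at day 6. Its control libraries lay above all treated ones, and day 2 and day 6 overlapped. The log2 fold change was -0.95 ± 0.09 at day 2 against the control (adjusted p = 4.01e-09) and 0.36 ± 0.09 at day 4 against day 2 (adjusted p = 0.0027). The difference between day 6 and day 4, -0.25 ± 0.09, did not pass the test (adjusted p = 0.0958, and 0.0375 without control replicate 2).

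Of the 5 genes of the spindle assembly checkpoint, 4 fell at day 2, and BUB3 did not pass the test in any comparison. BUB1, a checkpoint kinase that also marks inner centromeres, had 138, 128 and 145 CPM in control cells, 63.5, 73.0 and 65.8 at day 2, 99.8, 95.9 and 96.1 at day 4, and 67.1, 69.9 and 70.6 at day 6. Day 4 lay between the control and the other exposures, and day 2 and day 6 overlapped. The log2 fold change was -1.02 ± 0.08 at day 2 against the control (adjusted p = 1.1e-10), 0.53 ± 0.08 at day 4 against day 2 (adjusted p = 1.03e-05) and -0.49 ± 0.08 at day 6 against day 4 (adjusted p = 0.000372). BUB3, which carries BUB1 and BUB1B to kinetochores, had 340.3, 327 and 318 CPM in control cells, 302, 309 and 319.7 at day 2, 363, 348 and 333 at day 4, and 317, 309 and 299.5 at day 6. All 12 libraries lay within a narrow range, and its log2 fold change against the control was -0.08 ± 0.07 at day 2, 0.08 ± 0.07 at day 4 and -0.09 ± 0.07 at day 6 (adjusted p = 0.34, 0.393 and 0.31). Its difference of 0.17 ± 0.07 between day 4 and day 2 had an adjusted p of 0.0698, and passed with DESeq2 (0.0331) or without control replicate 2 (0.04). BUB1B, which inhibits the anaphase-promoting complex, had log2 fold changes against the control of -0.88, -0.60 and -0.98 at day 2, day 4 and day 6. Those of TTK, the kinase that starts the checkpoint signal, were -0.30, -0.42 and -0.46, and those of MAD2L1, the inhibitor assembled at unattached kinetochores, were -0.51, -0.22 and -0.35. MAD2L1 was the other checkpoint gene not called at day 4 against the control (adjusted p = 0.0617, and 0.0228 without control replicate 2 or 0.0316 without day 4 replicate 1).

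Of the 3 genes of the metaphase to anaphase switch, all fell at day 6, and their courses before that differed. CDC20, the activator of the anaphase-promoting complex (chromosome 1, 43358955 to 43363203), had 118, 140.5 and 110.5 CPM in control cells, 84.0, 93.3 and 84.4 at day 2, 57.9, 58.5 and 70.0 at day 4, and 39.1, 39.9 and 44.1 at day 6. Every exposure lay below the one before it with no overlap. The log2 fold change was -0.49 ± 0.10 at day 2 against the control (adjusted p = 0.000126), -0.49 ± 0.10 at day 4 against day 2 (adjusted p = 0.000289) and -0.60 ± 0.10 at day 6 against day 4 (adjusted p = 0.000463).

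UBE2C, the ubiquitin-conjugating enzyme of the complex, had 105, 132 and 97.2 CPM in control cells, 66.9, 81.0 and 57.1 at day 2, 86.2, 85.2 and 101 at day 4, and 57.0, 51.3 and 57.0 at day 6. Day 4 overlapped with the control and lay above day 2, and its log2 fold change was 0.41 ± 0.12 against day 2 (adjusted p = 0.00873, lost without day 2 replicate 3 at 0.06 or day 4 replicate 3 at 0.0508). It was -0.29 ± 0.12 at day 4 against the control (adjusted p = 0.0551, and 0.0209 without control replicate 3). PTTG1, which encodes securin, the inhibitor of sister chromatid separation, had 93.2, 137 and 110.2 CPM in control cells, 106, 108 and 92.2 at day 2, 102, 91.2 and 109 at day 4, and 66.4, 63.3 and 74.0 at day 6. The first 3 groups overlapped, and day 6 lay below them all. The change against the control was -0.15 ± 0.11 at day 2 (adjusted p = 0.259), -0.17 ± 0.11 at day 4 (adjusted p = 0.243) and -0.74 ± 0.11 at day 6 (adjusted p = 9.59e-06). Without control replicate 1, the lowest control, the day 2 and day 4 differences passed the test (adjusted p = 0.0316 and 0.031).

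Kinesins are motor proteins that move along microtubules or dismantle them. Of the 9, 8 fell at day 2, 8 at day 4 and 9 at day 6 against the control. Among all genes, 23.4%, 17.7% and 21.7% were lower in these comparisons. At day 4, 5 (55.6%) were higher and 2 (22.2%) lower than at day 2, against 16.3% and 18.5% of all genes. The 2 lower were thus near the share of all genes. KIF15, a spindle motor that works beside KIF11 to keep the poles apart (chromosome 3, 44761717 to 44873376), had 63.2, 60.3 and 65.7 CPM in control cells, 21, 20.4 and 20.1 at day 2, 33.2, 43.1 and 31.1 at day 4, and 35.0, 38.6 and 35.8 at day 6. Day 4 and day 6 overlapped and lay between day 2 and the control. Its log2 fold change of -1.62 ± 0.11 at day 2 (adjusted p = 5e-12) was the most negative of the 48 at that exposure, and its rise at day 4 against day 2, 0.80 ± 0.11 (adjusted p = 2.09e-06), was the largest. KIF20A, a motor of the midzone that is needed for cytokinesis (chromosome 5, 138178719 to 138187715), had 145, 167 and 165 CPM in control cells, 74.3, 88.4 and 77.8 at day 2, 54.2, 53.2 and 54.0 at day 4, and 27.7, 29.7 and 32.4 at day 6. Every exposure lay below the one before it. The change against the control was -0.98 ± 0.09 at day 2 (adjusted p = 8.77e-10), -1.56 ± 0.09 at day 4 (adjusted p = 4.38e-13) and -2.40 ± 0.09 at day 6 (adjusted p = 1.65e-16), the most negative of the 48.

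KIF20B, a relative of KIF20A, had 189, 170.3 and 199 CPM in control cells, 189, 173 and 174 at day 2, 187, 186 and 178 at day 4, and 142, 164 and 144 at day 6. Control, day 2 and day 4 overlapped, with log2 fold changes against the control of -0.06 ± 0.08 at day 2 and -0.02 ± 0.08 at day 4 (adjusted p = 0.584 and 0.887). Day 6 lay below all other libraries, with a change of -0.31 ± 0.08 against the control (adjusted p = 0.00273). KIF11, the motor that slides spindle poles apart, KIF14 and KIF23, which act at the midzone and midbody, and KIF4A, a motor of chromosome arms and midzone, had log2 fold changes of -1.15, -1.27, -1.05 and -0.71 at day 2 against the control. At day 4 against day 2 they were higher by 0.42, 0.55, 0.23 and 0.22 on the log2 scale. The calls of the smaller rises were lost when some single libraries were left out. KIF4A lost its call without day 2 replicate 1 (adjusted p = 0.131), day 2 replicate 2 (0.125), or day 4 replicate 1, 2 or 3 (0.091, 0.0538 and 0.0701). KIF23 lost its call without day 2 replicate 2 (0.0739) or day 4 replicate 2 (0.0782). KIF2C, which dismantles microtubules at centromeres, and KIF18A, which dampens chromosome movements, had log2 fold changes against the control of -0.53 and -0.48 at day 2, and -1.04 and -0.88 at day 6. KIF18A was the kinesin beside KIF20A that fell at day 4 against day 2, by 0.28 on the log2 scale (adjusted p = 0.0709 with libraries scaled by their totals alone).

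All 7 centromere and kinetochore genes fell at day 2. CENPA, the histone variant that marks centromeres (chromosome 2, 26764289 to 26801067), had 40.4, 39.2 and 32.4 CPM in control cells, 15.6, 13 and 12.1 at day 2, 13.5, 12.5 and 16.3 at day 4, and 7.55, 7.41 and 8.61 at day 6. Day 2 and day 4 overlapped, and day 6 lay below all other libraries. The change against the control was -1.46 ± 0.12 at day 2 (adjusted p = 7.06e-10) and -2.24 ± 0.13 at day 6 (adjusted p = 6.22e-13). CENPA shares 7.0% of its exon bases with SLC35F6 on the same strand. NUF2, a subunit of the NDC80 complex that grips microtubules (chromosome 1, 163266576 to 163355764), had 92.4, 93.2 and 104 CPM in control cells, 53.6, 52.8 and 50.3 at day 2, 87.4, 84.4 and 80.1 at day 4, and 59.5, 60.7 and 60.2 at day 6. No 2 groups overlapped, and day 4 came close to the control. Its log2 fold change was 0.69 ± 0.08 at day 4 against day 2 (adjusted p = 2.24e-07) and -0.48 ± 0.08 at day 6 against day 4 (adjusted p = 0.000391). The remaining difference between day 4 and the control, -0.20 ± 0.08, had an adjusted p of 0.0452. That call was lost without control replicate 3 (0.226) and without any single replicate of day 2 (0.0513 to 0.0616), day 4 (0.0558 to 0.166) or day 6 (0.0542 to 0.0602).

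SPC25, another subunit of that complex, had 16.5, 13.9 and 18.0 CPM in control cells, 9.07, 8.63 and 8.71 at day 2, 12.5, 11.3 and 15.2 at day 4, and 11.3, 13.6 and 15.4 at day 6. Day 2 lay below every other library, while control, day 4 and day 6 overlapped. Its change was -0.87 ± 0.14 at day 2 (adjusted p = 1.72e-05), -0.31 ± 0.14 at day 4 (adjusted p = 0.0806) and -0.26 ± 0.14 at day 6 (adjusted p = 0.128), so it joined BUB3 as the members not called at day 6 against the control. Without control replicate 2, the lowest control, both later differences passed (adjusted p = 0.023 and 0.0399). KNL1, the scaffold that recruits BUB1 to kinetochores, had 140.3, 101 and 143 CPM in control cells, 76.6, 90.4 and 95.9 at day 2, 90.0, 111 and 93.1 at day 4, and 89.6, 98.0 and 82.2 at day 6. Its second control lay near the treated libraries and overlapped with day 4. The change was -0.55 ± 0.12 at day 2 (adjusted p = 0.000718) and -0.38 ± 0.12 at day 4 (adjusted p = 0.015), and the exposures overlapped with each other. The day 4 call was lost without control replicate 1 (0.0688) or 3 (0.0807), or day 4 replicate 1 (0.0717) or 3 (0.0676).

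NDC80, the microtubule-binding subunit, CENPE, a kinetochore motor, and CENPF, a large protein of the outer kinetochore, had log2 fold changes against the control of -0.70, -0.58 and -0.70 at day 2, -0.63, -0.46 and -0.45 at day 4, and -0.91, -0.82 and -1.03 at day 6. CENPF was higher at day 4 than at day 2 by 0.25 on the log2 scale, a call lost without day 4 replicate 2 (0.17 on the log2 scale, adjusted p = 0.199), day 2 replicate 1 (0.153) or day 2 replicate 2 (0.0781).

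The 3 genes of the chromosomal passenger complex, which corrects wrong attachments and then guides cytokinesis, fell at every exposure against the control. AURKB, its kinase (chromosome 17, 8204733 to 8210600), had 95.4, 125 and 94.9 CPM in control cells, 51.8, 53.3 and 47.3 at day 2, 57.0, 52 and 58.5 at day 4, and 42.8, 38.5 and 46.8 at day 6. Day 2 and day 4 overlapped and day 6 lay below both. Its difference between day 6 and day 2, -0.25 ± 0.10, did not pass the test (adjusted p = 0.0564, but under 0.05 in 6 alternatives). Between day 6 and day 4 it was -0.385 ± 0.10 (adjusted p = 0.0236). That call was lost without day 4 replicate 1 (0.0943) or 3 (0.0941) or day 6 replicate 1 (0.0787) or 2 (0.149), and with library totals alone (0.0651). Against the control its change was -1.05 ± 0.10 at day 2 (adjusted p = 6.51e-09) and -1.30 ± 0.10 at day 6 (adjusted p = 1.97e-10). BIRC5, which encodes survivin, had 121, 148 and 122 CPM in control cells, 87.6, 81.5 and 93.7 at day 2, 105, 94.5 and 101 at day 4, and 75.4, 72.3 and 74.9 at day 6. No 2 groups overlapped, though the difference between day 4 and day 2, 0.19 ± 0.09, did not pass the test (adjusted p = 0.0892, and 0.0322 without control replicate 2). Its change at day 2 against the control was -0.57 ± 0.09 (adjusted p = 5.1e-06). INCENP, the scaffold of the complex, had log2 fold changes against the control of -0.65, -0.52 and -0.96 at day 2, day 4 and day 6. None of the 3 was called in either direction at day 4 against day 2.

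The 3 cytokinesis genes fell at every exposure against the control and were higher at day 4 than at day 2. ANLN, the anillin scaffold of the contractile ring (chromosome 7, 36389806 to 36453791), had 1159, 1041 and 1201 CPM in control cells, 643, 690.0 and 697 at day 2, 878, 1015 and 907 at day 4, and 607, 639.6 and 597 at day 6. Its groups did not overlap, and day 4 lay nearest to the control. The difference between its day 6 and day 2 groups, -0.14 ± 0.08, did not pass the test (adjusted p = 0.159). The log2 fold change was -0.74 ± 0.08 at day 2 against the control (adjusted p = 2.4e-08), 0.46 ± 0.08 at day 4 against day 2 (adjusted p = 4.73e-05) and -0.60 ± 0.08 at day 6 against day 4 (adjusted p = 2.65e-05). PRC1, which bundles the microtubules of the midzone, had 58.6, 65.3 and 59.1 CPM in control cells, 26.1, 27.5 and 28.0 at day 2, 38.0, 35.6 and 40.6 at day 4, and 25.5, 24.6 and 29.5 at day 6. Below day 4, the day 2 and day 6 libraries overlapped. The change was -1.16 ± 0.09 at day 2 against the control (adjusted p = 2.28e-10) and 0.49 ± 0.10 at day 4 against day 2 (adjusted p = 0.000252). PRC1 shares 57.6% of its exon bases with a gene annotated on the same strand in GENCODE release 29, so its counts are uncertain. ECT2, the exchange factor that switches on RhoA at the division plane, had log2 fold changes against the control of -1.01, -0.67 and -0.85 at day 2, day 4 and day 6. Its rise at day 4 against day 2, 0.34, was lost without day 4 replicate 2 (adjusted p = 0.0738).

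Of the 5 spindle microtubule proteins, 4 fell at day 2 and 5 at day 6 against the control. HMMR, a spindle pole protein and hyaluronan receptor, had 73.5, 75.3 and 83.4 CPM in control cells, 72.2, 69.1 and 67.0 at day 2, 82.3, 81.2 and 92.9 at day 4, and 45.6, 54.0 and 48.6 at day 6. Day 4 overlapped with the control, day 2 lay just under it, and day 6 lay far below all of them. The change against the control was -0.16 ± 0.09 at day 2 (adjusted p = 0.141), 0.14 ± 0.09 at day 4 (adjusted p = 0.201) and -0.65 ± 0.09 at day 6 (adjusted p = 1.37e-06). Between day 4 and day 2 it was 0.30 ± 0.09 (adjusted p = 0.00793, lost without day 4 replicate 3 at 0.0529). Between day 6 and day 4 it was -0.79 ± 0.09 (adjusted p = 2.98e-06). ASPM, a protein of spindle poles (chromosome 1, 197084128 to 197146694), had 400.5, 262 and 401 CPM in control cells, 156, 182 and 205 at day 2, 181, 236 and 206 at day 4, and 147, 158 and 147 at day 6. Its second control stood well below the other 2, as in KNL1, and that library was also the lowest control in CENPF, CENPE and KIF14. The ASPM controls still lay above all treated libraries. The change was -0.97 ± 0.15 at day 2 (adjusted p = 6.57e-05). The difference of -0.46 ± 0.15 at day 6 against day 4 did not pass (adjusted p = 0.0779, and 0.000604 without control replicate 2).

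TPX2, the activator of AURKA on spindle microtubules, had log2 fold changes against the control of -0.32, -0.71 and -1.25 at day 2, day 4 and day 6. DLGAP5, which stabilises kinetochore fibres, had -0.93, -0.60 and -1.23, and NUSAP1, which bundles spindle microtubules, had -0.72, -0.22 and -0.77, the middle value not called. NUSAP1 shares 62.2% of its exon bases with a gene on the same strand, so its counts are uncertain too.

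FOXM1, the transcription factor of late cell cycle genes (chromosome 12, 2857681 to 2877155), had 263, 306 and 277 CPM in control cells, 145, 150.2 and 144 at day 2, 172, 169 and 189 at day 4, and 129, 133 and 146 at day 6. Day 4 lay between the control and day 2, and day 6 overlapped with day 2. The log2 fold change was -0.95 ± 0.08 at day 2 against the control (adjusted p = 3.95e-10), 0.27 ± 0.08 at day 4 against day 2 (adjusted p = 0.00823) and -0.38 ± 0.08 at day 6 against day 4 (adjusted p = 0.00387). FOXM1 shares 15.9% of its exon bases with ITFG2 on the other strand, as do PLK1 (11.6%), CCNA2 (9.1%) and CDC25C (8.8%) with other genes, and whether the counting used strand is not given in the sources used here. MKI67, the Ki-67 protein that coats mitotic chromosomes (chromosome 10, 128096659 to 128126385), had 1184, 1101 and 1186 CPM in control cells, 474, 559.5 and 556 at day 2, 547, 637 and 619.5 at day 4, and 379.7, 412 and 424 at day 6. Day 2 and day 4 overlapped, and day 6 lay below both. Against the control the change was -1.13 ± 0.08 at day 2 (adjusted p = 4.3e-11) and -1.51 ± 0.08 at day 6 (adjusted p = 2.05e-13).

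Other genes of division were read from lists that name none of the 48. Among all genes, 23.8% were higher and 23.4% lower at day 2 than in the control. At day 4 against day 2 these shares were 16.3% and 18.5%, and at day 6 against day 4 they were 3.05% and 3.73%. Of 37 further mitotic genes, 0 were higher and 32 (86.5%) lower at day 2 than in the control. At day 4 against day 2, 12 (32.4%) were higher and 2 (5.41%) lower, and at day 6 against day 4, 1 (2.7%) was higher and 16 (43.2%) lower. Their median log2 fold changes in these 3 comparisons were -0.60, 0.14 and -0.25, and those of the 48 members -0.79, 0.21 and -0.47. At day 6 against day 4, the 16 lower were 10 without day 6 replicate 2 and also 10 with libraries scaled by their totals alone, and the 1 higher was lost without any single day 4 or day 6 library, control replicate 3 or day 2 replicate 2. TOP2A, the topoisomerase that separates sister chromatids and is a target of doxorubicin, averaged 961 ± 35.9 CPM in control cells, 425 ± 14.2 at day 2, 667 ± 34.5 at day 4 and 477 ± 18.4 at day 6. Of 22 further genes of centromeres and kinetochores (the constitutive centromere-associated network, the MIS12 complex, SPC24 and CENPA loading factors), 2 (9.09%) were higher and 17 (77.3%) lower at day 2 than in the control. At day 4 against day 2, 10 (45.5%) were higher and 2 (9.09%) lower, and at day 6 against day 4, 2 (9.09%) were higher and 2 (9.09%) lower. With 1 library left out, the day 6 step ranged from 0 higher (without day 6 replicate 1) to 3, and from 1 lower (without day 4 replicate 1, day 6 replicate 1 or day 6 replicate 2) to 4 (without control replicate 2), and it was 4 higher and 1 lower with libraries scaled by their totals alone. HJURP, the chaperone that deposits CENPA, was among the 2 lower at day 6, with averages of 146 ± 4.66 CPM in control cells, 70.5 ± 2.42 at day 2, 96.8 ± 2.71 at day 4 and 53.6 ± 4.41 at day 6.

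Of 18 condensin and cohesin genes, 16 (88.9%) had fallen at day 2, where 23.4% of all genes had. At day 4, 9 (50%) were higher than at day 2, against 16.3% of all genes. At day 6, 2 (11.1%) were lower than at day 4, where 3.73% of all genes were. Those 2 were 0 without day 6 replicate 1, and 1 without day 4 replicate 1, day 4 replicate 2 or day 6 replicate 3. Of 40 genes of the G1/S transition and DNA replication, 1 (2.5%) was higher and 31 (77.5%) lower at day 2 than in the control, against 23.8% and 23.4% of all genes. At day 4 against day 2, 18 (45%) were higher and 3 (7.5%) lower, against 16.3% and 18.5%. At day 6 against day 4, 5 (12.5%) were higher and 0 lower, where 3.05% of all genes were higher. The 5 ranged from 1 (without day 6 replicate 1) to 6 when a library was left out, and were 12 with libraries scaled by their totals alone. Their median at day 6 against day 4 was 0.09, that of the 48 members -0.47 and that of all genes 0.00. Against the control, 3 of the 40 were higher and 25 (62.5%) still lower at day 4, with a median of -0.31. At day 6, 4 were higher than the control and 17 (42.5%) lower, with a median of -0.16. Among all genes, 17.7% were lower than the control at day 4 and 21.7% at day 6. RRM2, a subunit of ribonucleotide reductase, averaged 698 ± 14.0 CPM in control cells, 321 ± 20.7 at day 2, 657 ± 18.8 at day 4 and 630.4 ± 42.8 at day 6. CLSPN, an adaptor of the replication checkpoint, averaged 220.0 ± 13.5 CPM in control cells, 88.4 ± 10.1 at day 2, 189 ± 6.63 at day 4 and 184 ± 2.21 at day 6. Whether the lists differ from the members was not tested.

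**Figure D4:**
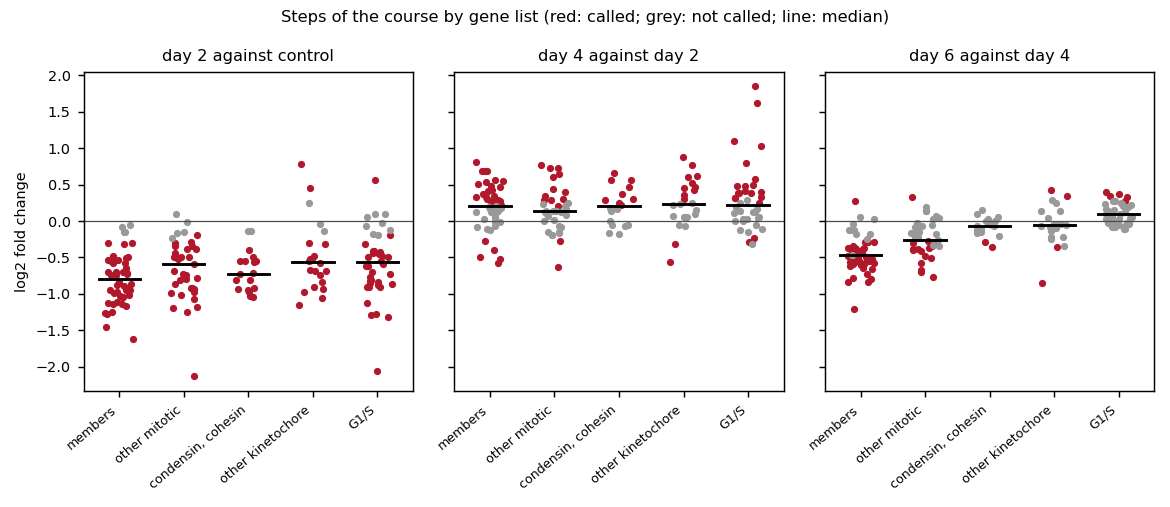
Log2 fold change (y axis) of each gene in 5 lists (x axis: the 48 members, other mitotic genes, condensin and cohesin, other centromere and kinetochore genes, G1/S and replication) in 3 panels (day 2 over control, day 4 over day 2, day 6 over day 4). Red points passed the test, grey ones did not, and black lines are medians, which for the members are -0.79, 0.21 and -0.47 and for the G1/S list -0.57, 0.22 and 0.09.

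Of 17 genes of the anaphase-promoting complex and its partners, 2 were higher (11.8%, and 1 without control replicate 1 or control replicate 3) and 7 lower (41.2%) at day 2 than in the control. Of 15 genes of DREAM, MuvB and their regulators, 1 was higher (6.67%) and 9 lower (60%), where 23.8% of all genes were higher and 23.4% lower. The 1 that was higher was CDKN1A, which encodes p21, the inhibitor of cyclin-dependent kinases. CDKN1A averaged 198 ± 31.4 CPM in control cells, 2300.2 ± 228 at day 2, 1454 ± 64.9 at day 4 and 1642 ± 146 at day 6, with log2 fold changes against the control of 3.54 ± 0.11, 2.88 ± 0.11 and 3.06 ± 0.11. Between day 4 and day 2 its log2 fold change was -0.66 ± 0.10 (adjusted p = 9.14e-06), and its difference between day 6 and day 4, 0.18 ± 0.10, did not pass the test (adjusted p = 0.314). MYBL2, which encodes B-MYB, averaged 245 ± 38.6 CPM in control cells, 226 ± 9.01 at day 2, 149 ± 13 at day 4 and 119 ± 8.69 at day 6. Its change against the control did not pass the test at day 2 (-0.12 ± 0.09, adjusted p = 0.323, and 0.0392 with libraries scaled by their totals alone) and was -0.71 ± 0.10 at day 4 and -1.03 ± 0.10 at day 6 (adjusted p = 1.67e-06 and 3.1e-09).

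Library measures that could move with the members were read beside them. Mitochondrial genes took 6.01 to 8.26% of counts in control libraries, 5.51 to 7.74% at day 2, 8.01 to 8.34% at day 4 and 5.77 to 6.80% at day 6. Without control replicate 2 and day 2 replicate 3, the libraries that stood apart in that share within their groups, 43, 42 and 47 members were below their control level at day 2, day 4 and day 6. Over the genes compared, control replicate 2 differed from replicates 1 and 3 by a chi-square per degree of freedom of 21.5 and 14.1, against 4.12 between those 2. Among members, it was the lowest control in ASPM, KNL1, CENPF, CENPE and KIF14. It was the highest control in UBE2C, PTTG1, CDC20, AURKB and BIRC5. The 11 fibroblast markers summed to 7819 to 8529 CPM in control libraries, 11790 to 12110 at day 2, 10130 to 10660 at day 4 and 8703 to 9151 at day 6. Counted singly, 8 were higher and 1 lower than in control libraries at day 2 (median log2 fold change 0.35), but 3 higher and 6 lower at day 4 (median -0.55) and 2 higher and 7 lower at day 6 (median -0.51). VIM, which averaged 4707 CPM at day 4 and 4026 at day 6, against 2133 in control cells, made up much of the later sums. The 12 cardiomyocyte markers summed to 9.06 to 15.3 CPM in control libraries, 10.8 to 15 at day 2, 11.8 to 17.0 at day 4 and 16.6 to 19.8 at day 6. Of the 3 tested, 0 were higher and 1 lower than the control at day 2, 0 and 0 at day 4, and 1 and 1 at day 6. Sums of the 7 endothelial markers were 22.7 to 24.6, 22.3 to 26.7, 25.9 to 27.5 and 20.6 to 21.3 CPM, and those of the 8 leukocyte and blood markers, HBA1 at 0 among them, were 4.82 to 7.36, 5.85 to 7.19, 10.1 to 13.2 and 11.4 to 13.2 CPM, in the order control, day 2, day 4 and day 6. The part of any of these in the members' levels was not tested.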

How the data were processed

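Messenger RNA of 12 AC16 libraries was counted per gene by the authors, and the deposited values are raw counts, 1 column per library, for 60607 Ensembl gene IDs. They carry no normalization and no step beyond counting. Per the submitters' processing notes, which assign no roles, HTSeq 0.13.5, STAR 2.7.8, Trimmomatic 0.38 and fastp 0.23.2 were used, and the genome build was GRCh38.p13. The strand setting and the annotation release are not given in the sources used here. Total counts were 14835743 to 21226441 per library, and no pair of libraries within a group had counts close enough to be copies. Pairs across groups were not checked.

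Symbols were matched for 60437 IDs. Positions and exon overlaps are from GENCODE release 29 on GRCh38, and promoters from RefSeq on GRCh38.p14, the first entry where a gene had several. Genes were kept by filterByExpr (minimum count 10, minimum total 15), which left 17320. Libraries were scaled by TMM and fitted in edgeR 4.0.16 under R 4.3.3 with a mean per group of 3, robust glmQLFit and glmQLFTest (8 residual degrees of freedom and a common biological coefficient of variation of 0.0887). CPM values are counts per 1000000 of these scaled libraries. Standard errors were taken as the size of the log2 fold change over the root of its F statistic. Groups follow the exposure in the labels. Each exposure was set against the control and each pair of exposures against each other (6 comparisons), with 1 further test for any difference. The procedure was tested on simulated counts.

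The members and gene lists were chosen with earlier results of these data known. All 48 members are named. Values of every library are given for the member with the lowest and the highest change at day 2 in each functional group, for the 3 highest and 3 lowest changes at day 4 against day 2, day 6 against day 4 and day 6 against control, and for CCNB1, CDK1, CDC20, MKI67 and FOXM1. Of other lists, genes with the smallest p at day 2 could be named, and CDKN1A, TOP2A and MYBL2.

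The alternatives tried were DESeq2 1.42.0 in place of edgeR, a block by replicate number, a fit of only the 2 groups compared, and each library left out in turn. Other scalings were library totals alone and DESeq2-type size factors, and other filters were none and at least 1 CPM in 3 libraries. Leaving out both libraries apart in mitochondrial share was an alternative chosen after seeing the data.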

Additional observations from a re-analysis of the deposited data

Results flagged for a closer look

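In many of the 48 genes the difference from the control was not the same in all exposure groups. This was tested directly between exposures, which is the difference of their effects against the shared control. No label states whether exposures lasted until collection, so length of exposure cannot be told apart from time since it ended. At day 4 against day 2, 29 members differed, with 24 higher (50%) and 5 lower (10.4%) at day 4. Among all genes, 16.3% were higher and 18.5% lower. At day 6 against day 4, 38 differed, with 1 higher (2.08%) and 37 lower (77.1%) at day 6, against 3.05% and 3.73% of all genes. At day 6 against day 2, 31 differed, with 6 higher (12.5%) and 25 lower (52.1%) at day 6, against 19.8% and 23% of all genes. The 5 lower and the 6 higher were below the shares of all genes. The opposite directions of the first pair of comparisons share the day 4 libraries.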

How the results depend on the processing

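The total of members called, both directions together, kept within 1.5 times in each comparison under every alternative run. By direction, at day 6 against day 2, the 6 higher were 3 without day 6 replicate 2 and 11 with libraries scaled by their totals alone, which left 15 of the 25 lower. The 1 higher at day 6 against day 4 was lost with the replicate block, with no low-count filter and without any single library of those groups. Leaving out 1 library at a time, the counts were 43 to 45 at day 2 against the control, 39 to 42 at day 4, 46 to 47 at day 6, 24 to 32 at day 4 against day 2, 29 to 40 at day 6 against day 4, and 23 to 33 at day 6 against day 2. With the libraries apart in mitochondrial share left out, an alternative chosen after seeing the data, they were 43, 42, 47, 34, 40 and 32. Of 288 fold changes, 56 changed their call under at least 1 of 20 alternatives (148 calls lost and 59 gained over 5760 values), no called value changed sign, and 53 values called under neither setting did. The members' median at day 6 against day 2 was -0.24, and -0.08 with libraries scaled by their totals alone.

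The replicate numbers showed no sign of pairing: deviations of libraries with the same number correlated at -0.17 to 0.10 over 18 pairs, and those with other numbers at -0.22 to 0.17 over 36. Deviations were taken from means of 3 libraries, so a weak pairing could be missed. With the number as a replicate block, 44, 40, 46, 29, 35 and 29 members were called in the 6 comparisons. NUSAP1, with 300 counts over the 3 day 2 libraries, had the fewest counts of the members.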
